A study of Mus musculus with 6 samples.

Results

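Macrophages take up, store and release much of the iron of the body, and the 10 genes examined here encode the main steps of that traffic. They are Hmox1, Bach1, Fth1, Ftl1, Ncoa4, Slc40a1, Tfrc, Trf, Cd163 and Slc11a1. They were chosen by name as iron, heme and ferritin handling genes, with earlier results of these data known. All 10 were found among the 22377 genes of the count table. Each of the 10 passed edgeR's filter on low counts, which left 13884 genes to be tested. RNA was sequenced in 6 libraries, of which 3 are labelled wt and 3 are labelled ko and knockdown. Each n counts libraries, some of which may come from the same mouse. In the study's methods the groups are Npm1+/+ and Npm1+/- mice, the latter heterozygous for Npm1, with no restriction to a cell type described. The labels name no genotype, so the groups are called wt and knockdown here. The mice were of both sexes and 6 to 8 weeks old when Lewis lung carcinoma (LLC) cells were implanted under the skin, and tumors were taken 2 weeks later. The methods describe CD45+ CD11b+ F4/80+ macrophages sorted from these tumors, whereas the labels give tumor tissue as the source and describe a small RNA library. The LLC cells were the same line in both groups.

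Iron reaches a macrophage as transferrin, taken in through the transferrin receptor (Tfrc), or as heme from engulfed red cells and from hemoglobin bound by Cd163. Heme oxygenase 1 (Hmox1) opens the heme ring and frees the iron, which is stored in ferritin, a shell of heavy (Fth1) and light (Ftl1) chains, or leaves through ferroportin (Slc40a1), the iron exporter. Bach1 is a heme-sensing repressor of Hmox1 and of the ferritin and ferroportin genes. Iron regulatory proteins, encoded by Aco1 and Ireb2, bind a hairpin called the iron-responsive element when iron is scarce. This blocks translation of ferritin and ferroportin mRNA, where the hairpin lies before the coding sequence, and protects Tfrc mRNA from decay, where the hairpins lie after it. In tumors, macrophages that release iron and macrophages that retain it have both been described.

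The hairpins are shown because they set the 4 genes that carry one, among the 10, apart from the other 6. A bulged C, an arm of 5 bases, the loop CAGTGN and a second arm able to pair with the first at all 5 positions were searched on the sense strand of the GENCODE transcripts of GRCm38. Stretches of 29 bases are printed 5′ to 3′ as DNA, and the 6 loop bases are in capitals. In Fth1 (chr19:9982732-9982760, plus strand), Ftl1 (chr7:45459779-45459807, minus strand) and Slc40a1 (chr1:45925465-45925493, minus strand), the match lay in the 5′ untranslated part of exon 1. In Tfrc the 4 matches lay in the 3′ untranslated part of exon 19 on the plus strand, at chr16:32631219-32631247, chr16:32631598-32631626, chr16:32631663-32631691 and chr16:32631710-32631738.
Fth1: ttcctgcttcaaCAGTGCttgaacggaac
Ftl1: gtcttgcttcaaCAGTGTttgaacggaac
Slc40a1: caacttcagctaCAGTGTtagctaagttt
Tfrc site 1: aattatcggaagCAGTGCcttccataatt
Tfrc site 2: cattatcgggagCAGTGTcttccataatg
Tfrc site 3: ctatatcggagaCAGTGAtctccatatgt
Tfrc site 4: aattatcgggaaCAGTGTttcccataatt
Of the genes annotated with a 5′ untranslated region, 31 of 20834 (0.149%) held such a match, and 144 of 21107 (0.682%) held one in the 3′ untranslated region. Untranslated regions differ in length, so these shares are not for windows of equal size. Tfrc was the 1 gene with 4 or more matches in the 3′ region.

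The libraries held between 36550775 and 38147320 counts. The first principal component of log2 CPM (counts per library brought to one total with TMM factors) held 67.99% of the variance, on which wt replicate 1 lay at -108.5 while the remaining 5 ran from -4.54 to 52.0. Npm1, the targeted gene, stood at 142, 380.2 and 381 CPM in wt replicates 1, 2 and 3 and at 441, 499 and 343 in knockdown replicates 1, 2 and 3, with a log2 fold change of 0.51 (SE 0.36), which was 0.16 without wt replicate 1. Npm1 mRNA was therefore not lower in the libraries labelled knockdown. The macrophage markers were abundant, with a summed level from 7056 to 7555 CPM in the wt libraries and from 4105 to 6639 in the knockdown libraries. Itgam was the largest part of this sum, at 2708 to 2975 CPM in wt and 1492.5 to 2660 in knockdown. Neither Itgam nor Ptprc, also on this list, is confined to macrophages. Of the 12 macrophage markers, all 12 had a log2 fold change below 0, from -0.74 to -0.09 with a median of -0.50, and the groups did not overlap in 7, against 47.9% of all genes below 0 and 12.6% lower without overlap. Markers of neutrophils (summed level 1696 to 1910 CPM in wt against 733 to 1481 in knockdown, all 9 tested below 0), fibroblasts (49.9 to 562 against 418 to 798, 11 of 12 above 0) and T or NK cells (19.5 to 80.5 against 64.6 to 178, all 8 tested above 0) also differed. Markers of epithelial or carcinoma cells summed to 36.1 to 138 CPM in wt and 129 to 192 in knockdown, with 2 of 4 tested above 0. Except in wt replicate 1, most of the fibroblast sum came from Col3a1 and most of the epithelial or carcinoma sum from Krt8. In knockdown replicate 1 these genes stood at 604 and 171 CPM. Col1a1, Col1a2, Postn and Fap were at or below 5.52 CPM in every library, and Epcam, Krt19 and Cldn4 did not pass the filter on low counts. In RNA of a cell mixture, fewer cells of a type and less RNA per cell cannot be told apart.

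Among the 10 genes, 9 had a lower estimate in the knockdown libraries and 1, Tfrc, a higher one, while 47.9% of all genes tested had a lower estimate. None passed an adjusted p of 0.05 in edgeR's quasi-likelihood test, as was the case for 0% of all genes. At an unadjusted p under 0.05 stood 6 genes with a lower estimate, against 8.31% of all genes, and 1 with a higher estimate, against 6.9%. In 5 genes every knockdown library was below every wt library, against 12.6% of all genes, and in 0 genes was every one above, against 13.3%. Because the 10 genes were chosen with earlier results of these data known, these shares are a description and not a test. The 7 genes at an unadjusted p under 0.05 became 3 without knockdown replicate 1 or 2 and 4 without wt replicate 2 or 3. The median log2 fold change of the 10 genes was -0.47, beside 0.02 for all genes tested and -0.50 for the macrophage markers. DESeq2 called 1 of the 10, Bach1, at an adjusted p under 0.05, against 0.9% of all genes. The 9 lower estimates, from -1.05 to -0.22 with a median of -0.47, thus had a median close to that of the macrophage markers, whose part in the result was not tested.

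**Figure D1:**
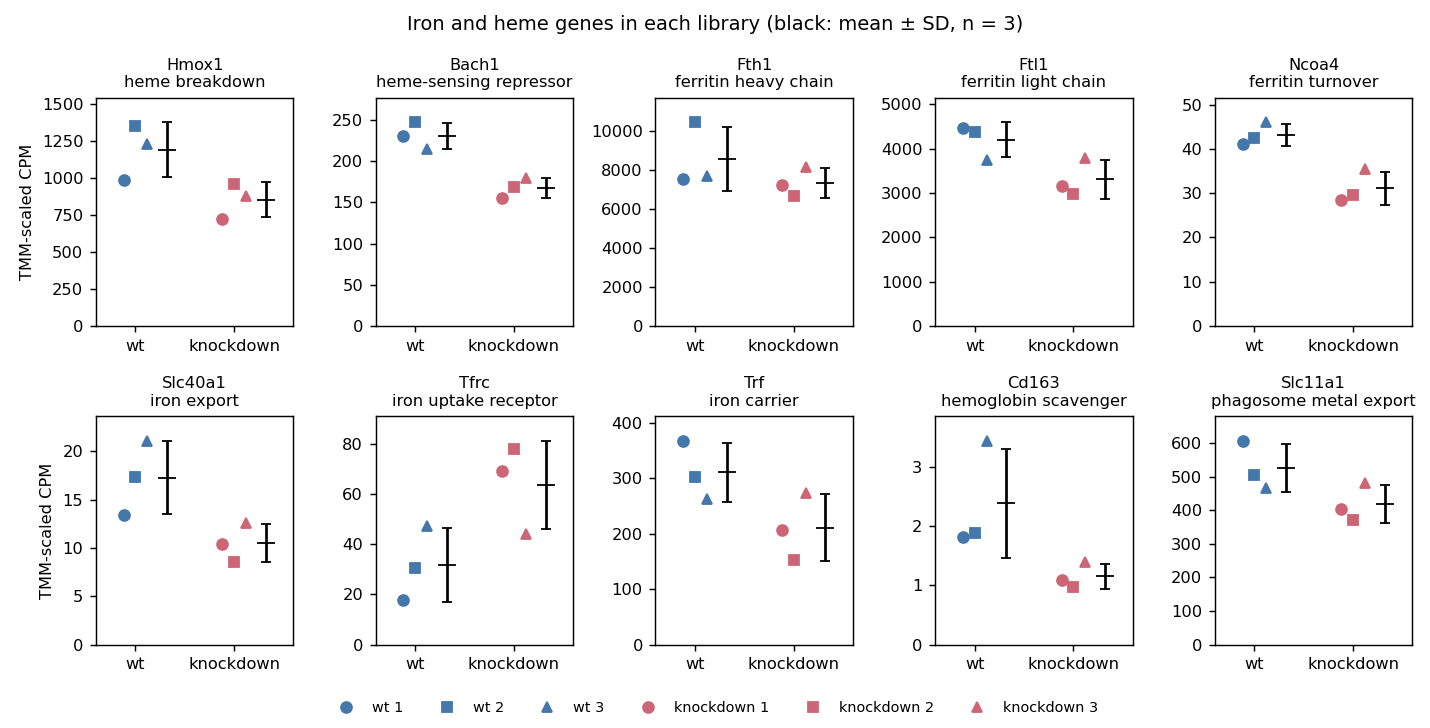
Level of each of the 10 genes (TMM-scaled CPM, axes from 0) in the 3 wt libraries (blue) and the 3 knockdown libraries (red), with symbols for replicates 1, 2 and 3 and black bars for the mean ± SD. The groups do not overlap in Hmox1, Bach1, Ncoa4, Slc40a1 and Cd163, and Tfrc is the gene with the higher mean in knockdown.

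Levels of different genes were compared per length, in FPKM. Averaged over the 6 libraries, Fth1 stood at 8390 FPKM and Ftl1 at 3840.2, and Fth1 ranked 1 or 2 among all genes in each library. The heavy and light ferritin chains together took between 1.09% and 1.38% of all counts. Hmox1 followed at 646 FPKM. Trf at 109.96 and Slc11a1 at 109 FPKM overlapped across libraries, as did Ncoa4 at 9.81 and Tfrc at 9.57, and Tfrc also overlapped Slc40a1 at 3.93. Bach1 lay between these pairs at 29.7 FPKM, apart from both. Cd163 was the lowest at 0.387 FPKM, on 41 to 129 counts per library, so its fold change rests on few counts.

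**Figure D2:**
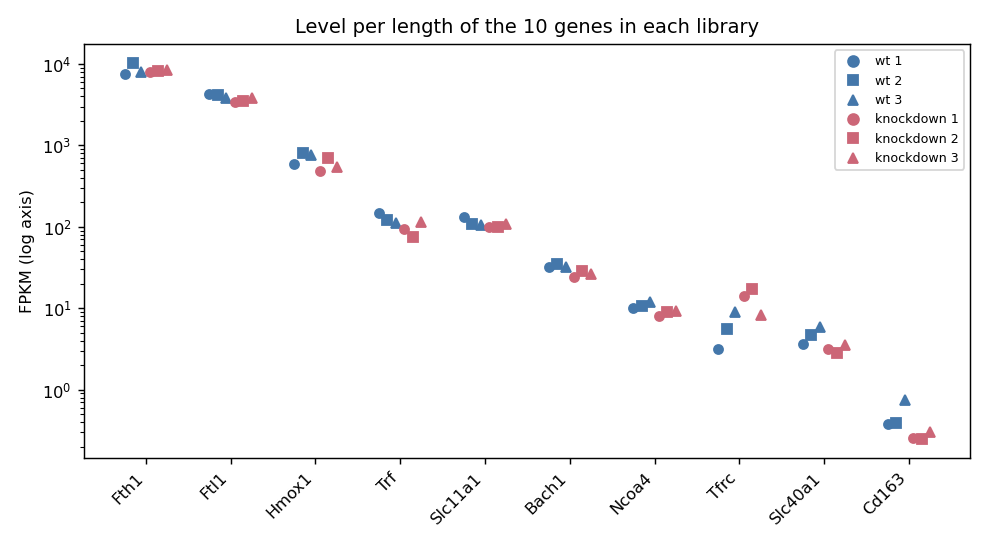
Level per length (FPKM, log axis) of the 10 genes in each of the 6 libraries, in order of their mean. Fth1 lies near 8390 and Cd163 near 0.387, and Trf with Slc11a1, Ncoa4 with Tfrc, and Tfrc with Slc40a1 overlap.

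Heme breakdown was considered first. Hmox1 (NCBI Gene 15368, GRCm38 chr8:75093621-75100589) was measured at 990.1, 1354 and 1233.5 CPM in wt replicates 1, 2 and 3 and at 725, 960.0 and 878 in knockdown replicates 1, 2 and 3. All knockdown libraries lay below all wt libraries, with a small gap between knockdown replicate 2 and wt replicate 1. The means were 1193 ± 185 and 855 ± 119 CPM (SD, n = 3 libraries each), and the log2 fold change was -0.48 (SE 0.17, adjusted p = 0.328, edgeR). In the deposited FPKM values, which carry no TMM factor, the groups of Hmox1 overlapped, with 586 FPKM in wt replicate 1 and 698 in knockdown replicate 2. Hmox2, the constitutive heme oxygenase, stood at -0.59 (SE 0.17), and the biliverdin reductases Blvrb and Blvra at -0.35 (SE 0.14) and -0.38 (SE 0.19). The 3 other heme degradation genes thus all had lower estimates, against 47.9% of all genes, and 2 of them stood at an unadjusted p under 0.05, against 8.31%. Blvra, the one that did not, is named here after its values were seen. The FPKM ratio of Hmox1 to Hmox2 was 22.3 ± 5.81 in wt and 24.2 ± 7.45 in knockdown (SD, n = 3 libraries each), with overlapping groups.

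Bach1 (NCBI Gene 12013, chr16:87698945-87733346) showed the smallest unadjusted p of the 10 genes. It stood at 230.0, 247 and 215 CPM in the wt libraries and at 155, 168 and 179 in the knockdown libraries, with narrow spread inside each group and a gap between the groups. The means were 231 ± 15.9 and 167 ± 12.2 CPM, a ratio of 0.726, and the log2 fold change was -0.46 (SE 0.12, adjusted p = 0.328, edgeR). DESeq2 gave -0.48 with an adjusted p of 0.045, whereas the other fits, edgeR and limma with other library factors, filters and left-out libraries, gave adjusted p-values between 0.242 and 0.701, and scaling to the macrophage markers, described further on, gave 0.95. Both Bach1 and its target Hmox1 had lower estimates, and the FPKM ratio of Hmox1 to Bach1 was 21.8 ± 3.22 in wt and 21.5 ± 2.28 in knockdown (SD, n = 3 libraries each). Nfe2l2, which encodes the activator Nrf2 that competes with Bach1 for the same DNA elements, had a log2 fold change of -0.46 (SE 0.21), or -0.30 without knockdown replicate 2, and overlapping groups. Its inhibitor Keap1 stood at -0.24 (SE 0.17), or -0.09 without wt replicate 1, and Mafg, the small Maf partner of both factors, at 0.03 (SE 0.13). Spic, a factor that heme induces in iron-recycling macrophages, stood at 0.12 (SE 0.32). Of the 8 genes in this group of factors, 0 passed the adjusted threshold and 0 an unadjusted p under 0.05.

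Of the ferritin chains, Fth1 (NCBI Gene 14319, chr19:9980598-9985098) had the smallest difference among the 10 genes and was at 7542, 10437 and 7687 CPM in wt and at 7208, 6654 and 8150.4 in knockdown. The groups overlapped, and wt replicate 2 stood above all other libraries. The log2 fold change was -0.22 (SE 0.20, adjusted p = 0.525, edgeR), and without wt replicate 2 it was -0.06. Ftl1 (NCBI Gene 14325, chr7:45457944-45459884) was at 4472, 4382 and 3754 CPM in wt and at 3149.6, 2976 and 3802 in knockdown. Here knockdown replicates 1 and 2 were the lowest libraries and knockdown replicate 3 lay among the wt values. In the deposited FPKM values the groups of Ftl1 did not overlap, with 3797 FPKM in knockdown replicate 3 and 3804 in wt replicate 3, and 6.88% of all genes were lower without overlap. The log2 fold change was -0.34 (SE 0.17, adjusted p = 0.34, edgeR). Ftl1 has processed pseudogenes with near-identical sequence. Of these, Ftl1-ps2 is in the count table with 3 to 11 counts per library, against 123825 to 159048 for Ftl1. The 2 other annotated genes that overlap the exons of Ftl1, Gm22133 and Gm10252, are not in the count table. How reads matching more than 1 of these genes were counted is not given. The FPKM ratio of Ftl1 to Fth1 was 0.576, 0.408 and 0.474 in wt and 0.424, 0.434 and 0.453 in knockdown. The ratio thus varied less among the knockdown libraries than among the wt libraries, and the groups overlapped.

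Ncoa4 (NCBI Gene 27057, chr14:32159865-32179855), the receptor that carries ferritin to the lysosome for release of its iron, was at 41.1, 42.4 and 46.0 CPM in wt and at 28.4, 29.5 and 35.3 in knockdown. The groups were separated by more than the SD of either group. The means were 43.2 ± 2.53 and 31.1 ± 3.73 CPM, and the log2 fold change was -0.47 (SE 0.14, adjusted p = 0.328, edgeR). In DESeq2 the adjusted p was 0.0882. Pcbp1, a chaperone that delivers iron to ferritin, had a log2 fold change of -0.29 (SE 0.14), or -0.19 without wt replicate 1. Of the 5 other storage and chaperone genes tested, 4 had lower estimates and 0 an unadjusted p under 0.05.

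Slc40a1 (NCBI Gene 53945, chr1:45908068-45926523), which encodes ferroportin, was at 13.4, 17.3 and 21.1 CPM in wt and at 10.4, 8.57 and 12.6 in knockdown. Each knockdown library was below each wt library, with knockdown replicate 3 just under wt replicate 1. The means were 17.3 ± 3.81 and 10.5 ± 2.01 CPM, a ratio of 0.608, and the log2 fold change was -0.72 (SE 0.23, adjusted p = 0.328, edgeR). Of the 5 other export genes listed, only Cp, which encodes the ferroxidase ceruloplasmin, passed the filter on low counts. Cp was at 0.759, 19.0 and 17.4 CPM in wt and at 32.1, 28.4 and 18.9 in knockdown, with wt replicate 1 far below the rest. Its log2 fold change was 1.09 (SE 0.86), and 0.54 without that library. The fibroblast markers were likewise lowest in wt replicate 1, at a summed level of 49.9 CPM against 339 to 798 in the other libraries. So were the epithelial or carcinoma markers, at 36.1 CPM against 80.4 to 192. Of their tested genes, Krt8 and Krt18 were lowest in that library and Cdh1 and Krt7 highest. The part of either list in the Cp values was not tested.

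Tfrc (NCBI Gene 22042, chr16:32608920-32632794) was the 1 gene of the 10 with a higher estimate in knockdown. It was at 17.6, 30.4 and 47.2 CPM in wt and at 69.0, 77.8 and 44.1 in knockdown. Knockdown replicates 1 and 2 were the highest libraries, while knockdown replicate 3 lay just under wt replicate 3, so the groups overlapped. The means were 31.7 ± 14.8 and 63.7 ± 17.5 CPM, a ratio of 2.01, and the log2 fold change was 1.00 (SE 0.36, adjusted p = 0.328, edgeR). Without wt replicate 1, the lowest library, the log2 fold change was 0.71, and without wt replicate 3 it was 1.39. Across libraries Tfrc was more variable than the other members, with a 4.42-fold range, against a median of 1.70 for all genes tested with a mean of at least 1 CPM. Npm1 and the T or NK cell markers were also lowest in wt replicate 1 and highest in knockdown replicate 2. The summed fibroblast markers and epithelial or carcinoma markers were lowest in wt replicate 1 and highest in knockdown replicate 1, as were Col3a1 and Krt8 alone. The part of any of these in the Tfrc values was not tested.

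Slc11a2, the endosomal transporter that acts after Tfrc, had a log2 fold change of 0.42 (SE 0.24), which was 0.14 without knockdown replicate 2, and Steap3, the endosomal ferrireductase, of 0.07 (SE 0.28). The iron regulatory proteins, which protect Tfrc mRNA in low iron, were level between the groups, with log2 fold changes of -0.06 (SE 0.15) for Aco1 and 0.03 (SE 0.17) for Ireb2. Fbxl5, the iron-sensing ligase subunit that targets the Ireb2 protein for degradation, stood at -0.11 (SE 0.24). Their activity depends on iron and protein stability, which RNA counts do not measure. Of the 9 tested genes of iron uptake and reduction, 5 had higher estimates, and the 1 gene at an unadjusted p under 0.05 was the ferrireductase Steap4, at -0.86 (SE 0.35), or -0.57 without knockdown replicate 2.

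Because Tfrc and Slc40a1 stand at entry and exit, their ratio per length was taken within each library, where library scaling cancels. A difference in cell mixture does not cancel. This ratio was chosen after the values were seen and is given as a description. It sets the gene with a higher estimate over a gene with a lower estimate. The FPKM ratio of Tfrc to Slc40a1 was 0.887, 1.19 and 1.52 in wt and 4.5, 6.15 and 2.37 in knockdown. The lowest knockdown library was above the highest wt library, and the means were 1.2 ± 0.315 and 4.34 ± 1.89 (SD, n = 3 libraries each), a 3.63-fold difference. The ratio of Tfrc to Fth1 did not separate the groups, since wt replicate 3 (0.00112) was above knockdown replicate 3 (0.00099).

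**Figure D3:**
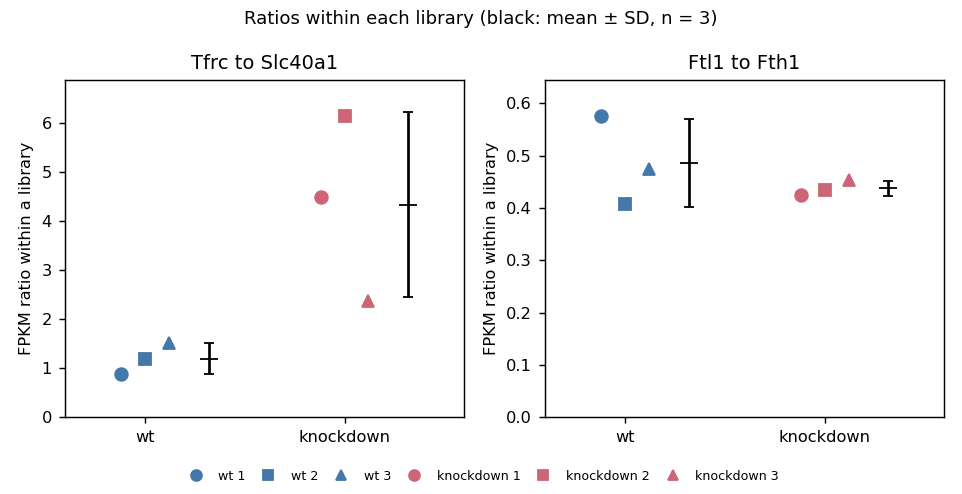
FPKM ratios within each library for Tfrc to Slc40a1 (left) and Ftl1 to Fth1 (right), axes from 0, with wt in blue, knockdown in red and black bars for the mean ± SD. The 3 knockdown libraries lie from 2.37 to 6.15 for Tfrc to Slc40a1, above wt, whereas for Ftl1 to Fth1 the groups overlap.

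Trf (NCBI Gene 22041, chr9:103204001-103230444), which encodes the plasma iron carrier transferrin, was at 367, 302 and 263 CPM in wt and at 206, 153 and 273 in knockdown. Knockdown replicate 3 lay above wt replicate 3, so the groups overlapped. The log2 fold change was -0.56 (SE 0.23, adjusted p = 0.328, edgeR), and without knockdown replicate 2 it was -0.38. The annotated gene Gm20425 overlaps the exons of Trf on the same strand and is not in the count table.

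Cd163 (NCBI Gene 93671, chr6:124304656-124330527), the scavenger receptor for hemoglobin bound to haptoglobin, was at 1.83, 1.89 and 3.45 CPM in wt and at 1.09, 0.979 and 1.395 in knockdown. The groups did not overlap, and wt replicate 3 stood well above the other wt libraries. The log2 fold change was -1.05 (SE 0.38, adjusted p = 0.328, edgeR), the largest decrease in estimate of the 10 genes, and -0.70 without wt replicate 3. Hp, which encodes haptoglobin and is also a neutrophil granule transcript, was at 617, 399.8 and 389.5 CPM in wt and at 272, 164 and 352 in knockdown, with a log2 fold change of -0.84 (SE 0.30). Lrp1, the receptor for heme bound to hemopexin, was at 2122, 1757 and 1640.1 CPM in wt and at 1025, 906 and 1306 in knockdown. Its log2 fold change was -0.77 (SE 0.19, adjusted p = 0.328, edgeR), and DESeq2 called it at an adjusted p of 0.0226. Slc48a1, which moves heme out of the phagolysosome, stood at -0.28 (SE 0.13), or -0.18 without wt replicate 2, and the groups did not overlap. In 3 of the 4 tested genes of hemoglobin and heme uptake all knockdown libraries were thus below all wt libraries, against 12.6% of all genes.

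Red cell transcripts, a sign of blood carried with the cells or engulfed by them, were present in all libraries. The summed level of the red cell list was 636 to 1179 CPM in wt and 343 to 780 in knockdown. All 6 tested red cell genes had lower estimates, with a median log2 fold change of -0.72. Knockdown replicate 2, at 779.6 CPM, lay above wt replicates 1 and 3, so the sums overlapped. Their part in the heme gene values was not tested.

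Slc11a1 (NCBI Gene 18173, chr1:74375195-74386062), which pumps iron and manganese out of the phagosome, was at 607, 506 and 466 CPM in wt and at 405, 371 and 480.2 in knockdown. Knockdown replicate 3 lay above wt replicate 3. The log2 fold change was -0.33 (SE 0.16, adjusted p = 0.336, edgeR), and without wt replicate 1 it was -0.22.

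Among the knockdown libraries, 6 of the 10 genes (Slc40a1, Fth1, Ftl1, Cd163, Slc11a1 and Trf) had the same order of levels as the summed macrophage markers, with replicate 2 lowest at 4105 CPM, replicate 1 next at 5058 and replicate 3 highest at 6639. Tfrc had the reverse order. The TMM factors (1.147, 1.051 and 0.969 in knockdown replicates 2, 1 and 3) lower levels in that same order, and the share of all genes with it was not counted. In the deposited FPKM values, Fth1, Ftl1 and Slc11a1 were lowest in replicate 1 among the knockdown libraries. The counts were also scaled to the 12 macrophage markers, an alternative chosen after the data were examined. This moved the median log2 fold change of all genes to 0.51 and left 11.1% of them below 0. With this scaling 4 of the 10 genes had estimates below 0, and Hmox1 (0.02), Bach1 (0.02), Fth1 (0.24), Ftl1 (0.12) and Slc11a1 (0.13) changed sign. Ncoa4 stood at -0.00, Trf at -0.13, Slc40a1 at -0.27 (SE 0.29) and Cd163 at -0.60 (SE 0.47). The groups of Cd163 still did not overlap, against 0.85% of all genes lower without overlap. The gap was small for a gene with few counts, at 1.446 CPM in the highest knockdown library and 1.51 in the lowest wt library. Tfrc stood at 1.55 (SE 0.42, adjusted p = 0.129, edgeR), and its groups no longer overlapped, at 40.6 CPM in the lowest knockdown library and 40.1 in the highest wt library, against 31.1% of all genes higher without overlap. Relative to all genes, Tfrc was above the median and the other 9 below it under this scaling as under TMM. Relative to the macrophage markers, the estimates of Hmox1 (SE 0.24), Bach1 (SE 0.20) and Ncoa4 (SE 0.22) were near 0. With these standard errors, a change in either direction was not excluded.

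**Figure D4:**
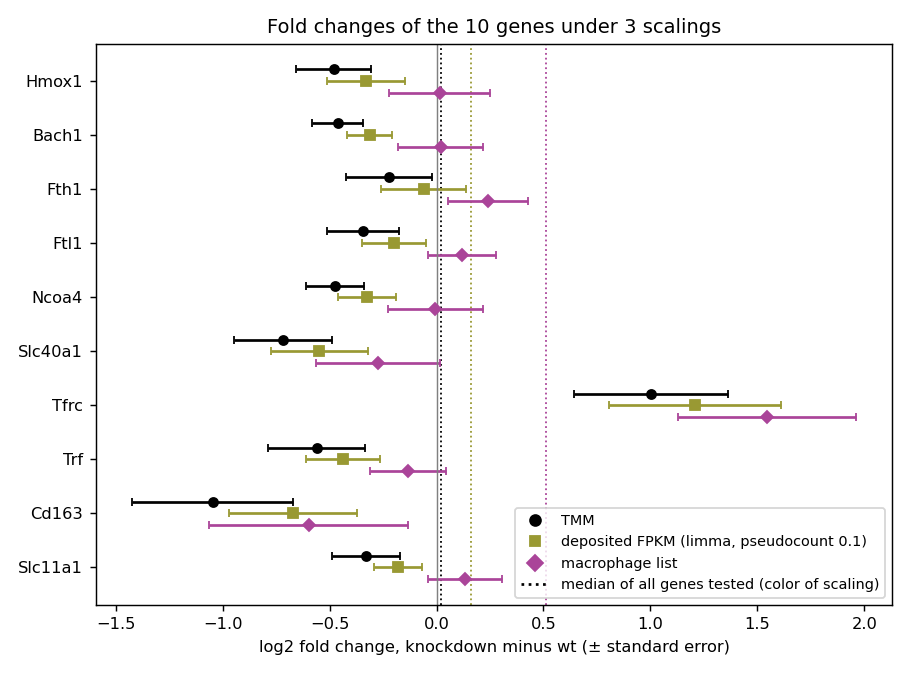
Log2 fold change (knockdown minus wt, bars for the standard error) of the 10 genes with TMM scaling, with the deposited FPKM values and with scaling to the macrophage markers, where dotted lines mark the median of all genes tested (0.02, 0.16 and 0.51). Tfrc stays above 0 under all 3 scalings, and Hmox1, Bach1, Fth1, Ftl1 and Slc11a1 change sign with the macrophage scaling.

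The remaining genes of iron and heme handling were described from lists of 87 genes, of which 85 are in the count table and 74 were tested. With an adjusted p under 0.05 there were 0. At an unadjusted p under 0.05 stood 9 with a lower estimate (12.2%, against 8.31% of all genes) and 1 with a higher estimate (1.35%, against 6.9%). Groups did not overlap in 15 lower genes (20.3%, against 12.6%) and 3 higher genes (4.05%, against 13.3%). Their median log2 fold change was -0.06, so that these genes as a whole lay nearer to all genes (0.02) than to the 10 genes described above (-0.47).

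In heme synthesis and export, 8 of 11 tested genes had lower estimates, led by Alas1, the first and rate-limiting enzyme of heme synthesis, which was at 101, 102 and 81.2 CPM in wt and at 69.8, 52.8 and 65.6 in knockdown. All knockdown libraries of Alas1 were below wt, with a log2 fold change of -0.60 (SE 0.15, adjusted p = 0.328, edgeR). The heme exporter Flvcr1 was level, at -0.02 (SE 0.11), and this sign changed with other scalings. Targets of Nrf2 were divided, with 6 of 12 in each direction. Gclm, a subunit of the enzyme that starts glutathione synthesis, stood at -0.12 (SE 0.15), the cystine transporter Slc7a11 at 0.19 (SE 0.35) and the quinone reductase Nqo1 at 0.78 (SE 0.56). Without wt replicate 1, Nqo1, with 12 to 88 counts per library, stood at 0.34. The gene with the smallest p in that list was G6pdx, which supplies NADPH through the pentose phosphate pathway, at -0.64 (SE 0.21). Of the list for mitochondrial iron and iron-sulfur cluster assembly, 15 genes were tested. Among them, the ferredoxin Fdx1 was at 3.71, 5.33 and 5.00 CPM in wt and at 9.36, 9.45 and 6.32 in knockdown. The ferredoxin Fdx2 of the same list, with 0 to 15 counts per library, did not pass the filter on low counts. Fdx1 had a log2 fold change of 0.84 (SE 0.26, adjusted p = 0.328, edgeR) and groups that did not overlap, and the mitochondrial iron importer Slc25a28 stood at -0.50 (SE 0.21), which was -0.24 without wt replicate 1.

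**Figure D5:**
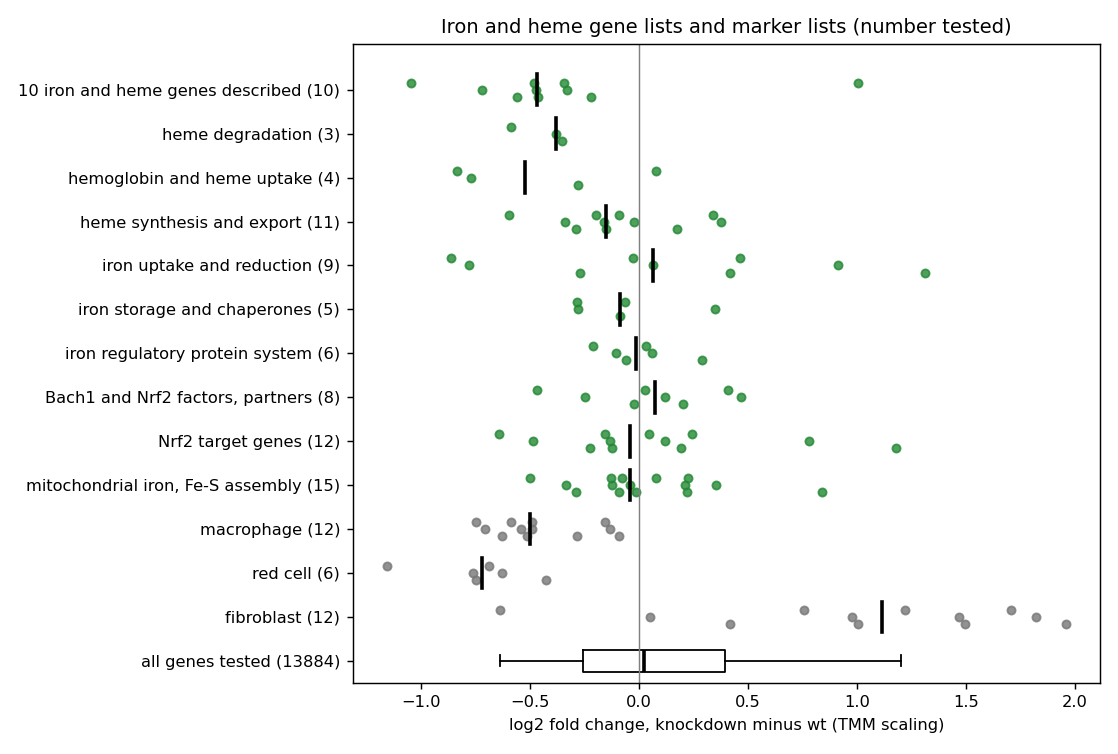
Log2 fold change (knockdown minus wt, TMM scaling) of each tested gene of the iron and heme lists (green) and of the macrophage, red cell and fibroblast markers (grey), with black bars for the median of a list and a box for all 13884 genes tested (quartiles, with whiskers at the 5th and 95th percentile). The 10 genes described (median -0.47) lie near the macrophage markers (median -0.50), while the other iron lists spread on both sides of 0.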

How the data were processed

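RNA of 6 mouse libraries, 3 wt and 3 knockdown as the labels name them, was analysed. The deposited counts are whole numbers that the authors did not normalize. The deposited FPKM values were checked to equal these counts divided by one length per gene and by the library total. The labels name mm10 as the build, and the aligner, counter and annotation are not given in the sources used here. The study's methods name no test for the sequencing. Counts were fitted with edgeR 4.0.16 in R 4.3.3 (filterByExpr, TMM factors, glmQLFit and glmQLFTest, two-sided) with Benjamini-Hochberg adjustment over 13884 genes and a threshold of 0.05. The standard error (SE) of a log2 fold change is its size over the square root of F. Levels, with their SD, are CPM after TMM scaling. Other fits were made with DESeq2 1.42.0 on the same genes, limma 3.58.1 on log2 of the deposited FPKM plus 1 or 0.1, other scalings and filters, a replicate block, and each library left out. With 3 libraries against 3, an exact permutation test cannot give a two-sided p below 0.1. The labels call the libraries biosamples and do not say whether each is a separate mouse. A legend of the study gives 2 individual mice for these data, fewer than the 3 libraries per group, so libraries may share a mouse. Every n here counts libraries, p-values measure the spread between them, which may be technical, and they are too small if mice were shared.

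The genes and lists were chosen with earlier results of these data known. The text describes the 10 genes, Npm1, 20 further iron genes set by name, and the gene with the smallest p in each direction of each list where its unadjusted p was under 0.05. Gene coordinates are from GENCODE M21 (GRCm38), matched by symbol with NCBI Gene numbers checked. The fits were tested on simulated counts.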

Additional observations from a re-analysis of the deposited data

How the results depend on the processing

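With edgeR and limma, 0 of the 10 genes and 0 of all genes passed the adjusted threshold under each alternative and with each library left out, with 2112 genes at an unadjusted p under 0.05 in edgeR. DESeq2 called 108 genes and 1 of the 10, Bach1 (log2 fold change -0.48). No group had enough libraries to test for a single outlying library. The log2 fold changes of the 10 genes kept their sign in all 14 alternatives other than the macrophage scaling, and ranged with single libraries left out from 0.71 to 1.39 for Tfrc and from -1.21 to -0.06 over the others. The number of the 10 genes at an unadjusted p under 0.05 was 7, and 3 to 9 with single libraries left out, and that of all genes 669 to 2689, the lowest without knockdown replicate 2. It was 4 of the 10 with limma on log2(FPKM + 1). The median of the 10 genes was -0.27 with limma on log2(FPKM + 1), and with single libraries left out it lay between -0.51 and -0.39. The difference between groups (knockdown minus wt) in the mean FPKM ratio of Ftl1 to Fth1 was -0.049. It was -0.0038 without wt replicate 1 and -0.088 without wt replicate 2.

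The replicate numbers gave no sign of pairing, with correlations of deviations from the group means of -0.241, 0.0605 and -0.337. These values cannot exclude a pairing or a shared batch. The deviations come from means of 3 libraries, and wt replicate 1, far from the rest, enters the wt mean. In a paired fit (replicate block), 0 genes were called, 1606 stood at an unadjusted p under 0.05, and Tfrc had a log2 fold change of 1.08 and Bach1 of -0.46.

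Scaling to the macrophage markers, chosen after the data were examined, moved the median of all genes to 0.51, of the 10 genes to 0.017 and of the other iron genes to 0.43. It turned Hmox1 to 0.016, Fth1 to 0.24, Ftl1 to 0.12, Slc11a1 to 0.13, Bach1 to 0.019, Slc48a1 to 0.20, Blvrb to 0.12, Flvcr1 to 0.48, Pcbp1 to 0.19, Aco1 to 0.42, Fbxl5 to 0.31, Keap1 to 0.25 and Gclm to 0.37. Of the 10 genes, 1 then stood at an unadjusted p under 0.05, against 4354 of all genes.

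Among genes near 0 under TMM, Flvcr1 was 0.014 with upper quartile factors and 0.0056 when each library had to hold at least 10 counts. With limma on log2 FPKM plus 1 or 0.1, Flvcr1 was 0.11 and 0.12, Aco1 0.088 and 0.098, Fbxl5 0.0071 and 0.0070, and Gclm 0.025 and 0.027, and the latter pseudocount moved the median of all genes to 0.16. With single libraries left out, the sign turned in Steap3 (-0.19 to 0.34), Aco1 (-0.14 to 0.065), Ireb2 (-0.072 to 0.21), Fbxl5 (-0.38 to 0.079), Mafg (-0.082 to 0.093), Spic (-0.19 to 0.34), Slc7a11 (-0.15 to 0.49) and Flvcr1 (up to 0.014). Their causes were not tested. Among the 10 genes, Cd163 had the fewest counts, 41 to 129 per library.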
